A study of Sus scrofa with 50 samples.

Results

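The spread among 10 in vitro produced porcine morulae was examined, out of 50 single embryos in the series. They were chosen by the stage and production method in their labels, and every such embryo was used. Each is 1 Smart-seq2 library, in which full-length cDNA is primed on the poly(A) tail, and the embryos are called by their label codes A3, B2, C2, D2, E2, F1, F2, G1, G2 and H1. All were compacted morulae, collected 100 h after fertilization of in vitro matured abattoir oocytes with frozen sperm of a single Duroc boar. Culture was in Porcine Zygote medium-5, and 2-cell embryos were selected along the way. The labels give 3 of them as female (B2, E2 and F2) and 7 as male. They stem from several independent experiments, but neither the experiment nor the mother is given per embryo, so that differences between oocytes, experiments, dishes and libraries cannot be told apart. No other group of embryos was compared with them.

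In a compacting morula the blastomeres flatten against each other, build adherens and tight junctions and become polarized, and the outer cells set out towards the trophectoderm, the later outer layer of the blastocyst. By this stage the embryo transcribes its own genome, while the transcripts that the oocyte had stored, such as those of oocyte growth factors and meiotic kinases, are cleared. The p53 and ATF4 pathways, which answer DNA damage and shortage of amino acids, can already act in single embryos.

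The deposited values are CPM, the reads of a gene scaled by the size of the library, not divided by transcript length. The depth, as reads on genes recovered from these values, was 3694480 ± 615813 reads per embryo (SD, n = 10), from 2659302 to 4631967 reads. It lies below the sequencing depth per sample that the paper states. A value of 0 allows up to 3 reads, which is 0.575 to 0.948 CPM depending on the embryo and covers counting error only. In bulk RNA of a whole embryo, fewer cells of a type and less RNA per cell cannot be told apart. Embryo B2 stood apart: 17873 genes had a read in B2, against 14488 to 15994 in the other 9, and 17516 against 13965 to 15636 when all libraries were thinned to the depth of the shallowest. The mean correlation of an embryo with the others was 0.773 for B2, 0.826 for G1, 0.851 for E2 and 0.873 to 0.886 for the rest. In E2 the deposited scaling placed the median of all genes at 0.11 and the plain library total at -0.20 (log2, relative to each gene's mean), so levels in E2 are given under both scalings where it matters. The methods of the study mention sperm on the outside of these embryos. Of 14 sperm genes matched and 13 blood cell genes matched, 0 reached a mean of 10 CPM, and their summed levels were 1.75 to 20.1 CPM and 0.751 to 17.1 CPM per embryo. Of 19 genes of cumulus and granulosa cells, the cells around the oocyte, 3 reached 10 CPM, and PTX3, TNFAIP6 and INHA were at 0 in every embryo. Their summed level was 346 CPM in B2, 326 CPM in G1 and 676 CPM in E2, against 296 to 745 CPM in the other 7, most of it LGALS1.

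The same few transcripts led every morula. CDC26, a small subunit of the anaphase-promoting complex, was the most abundant gene in all 10 embryos, at 11363 ± 3634 CPM (SD, n = 10; 5782 to 16498 CPM). UBB (polyubiquitin) followed at 4584 ± 1085 CPM, HSPA8 (a constitutive chaperone) at 4470.2 ± 1483 CPM and EEF1A1 (translation elongation) at 4178 ± 1119.6 CPM. UBB ranked between 2 and 9, HSPA8 between 2 and 9 and EEF1A1 between 2 and 8 in every embryo. The 15 genes with the highest means also held FTH1 (ferritin heavy chain, 3679 ± 2055 CPM), GPD1L (a glycerol 3-phosphate dehydrogenase, 3385 ± 1621 CPM), CALM2 (calmodulin), RAN (nuclear transport), LDHB (lactate dehydrogenase, 2805 ± 1206 CPM), ATP5A1 (ATP synthase), RPLP0 (ribosome) and ODC1 (polyamine synthesis), with CNBP, CDV3 and LOC100521680. Together they took 6.75% of the mean CPM of all genes. Several of these genes have near-identical copies elsewhere, and the counting tool is not given, so their reads may be shared with the copies.

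Among these abundant transcripts the steady and the variable ones differed. CNBP, ATP5A1 and EEF1A1 had SDs of 0.30, 0.31 and 0.35 on the log2(CPM + 1) scale, whereas FTH1, GPD1L and LDHB had SDs of 0.76, 0.79 and 0.68. FTH1 was at 1119.5 CPM in G1, against 2206 to 8791 CPM (median 3149 CPM) in the other embryos. LDHB was at 949 CPM in G1, against 1656 to 5274 CPM (median 2895 CPM). FTH1 ranked 73 and LDHB 95 in G1, and no worse than 18 and 24 in any other embryo. At the other end E2 held the highest level of HSPA8 (7731 CPM), EEF1A1 (6767 CPM), FTH1 (8791 CPM) and RPLP0 (5528 CPM). It stayed the highest under the plain library total, but closer to the next embryo: HSPA8 was then at 7192 CPM in E2 and at most 6621 CPM elsewhere, and EEF1A1 at 6295 CPM in E2 and at most 6151 CPM elsewhere.

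Most genes differed little between the embryos. Over the 7272 genes with a mean of at least 10 CPM, the median SD of log2(CPM + 1) was 0.51, with quartiles of 0.38 and 0.69, and over the 9 embryos without B2 it was 0.47 (7172 genes). The SD was above 1 in 630 genes, 8.66% of those measured, and in 444 genes (6.19%) without B2. It was 4.10% (295 genes) without B2 and G1, and 7.12% without G1 alone. The mean of 10 CPM was taken anew over the embryos kept, so genes that reached it only through B2 dropped out with B2. Part of the fall without B2 was thus set by this filter. Counting reads alone would give a median SD of 0.11. Of the genes, 98.0% exceeded 2 times their own counting SD, as did 96.9% without B2. The counting SD takes every read as independent and leaves out the error of amplification and library preparation. The paper reports duplicated reads, so the counting SD is a lower bound of the technical error. With a single library per embryo, these shares cannot tell differences between embryos from technical error.

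**Figure D1:**
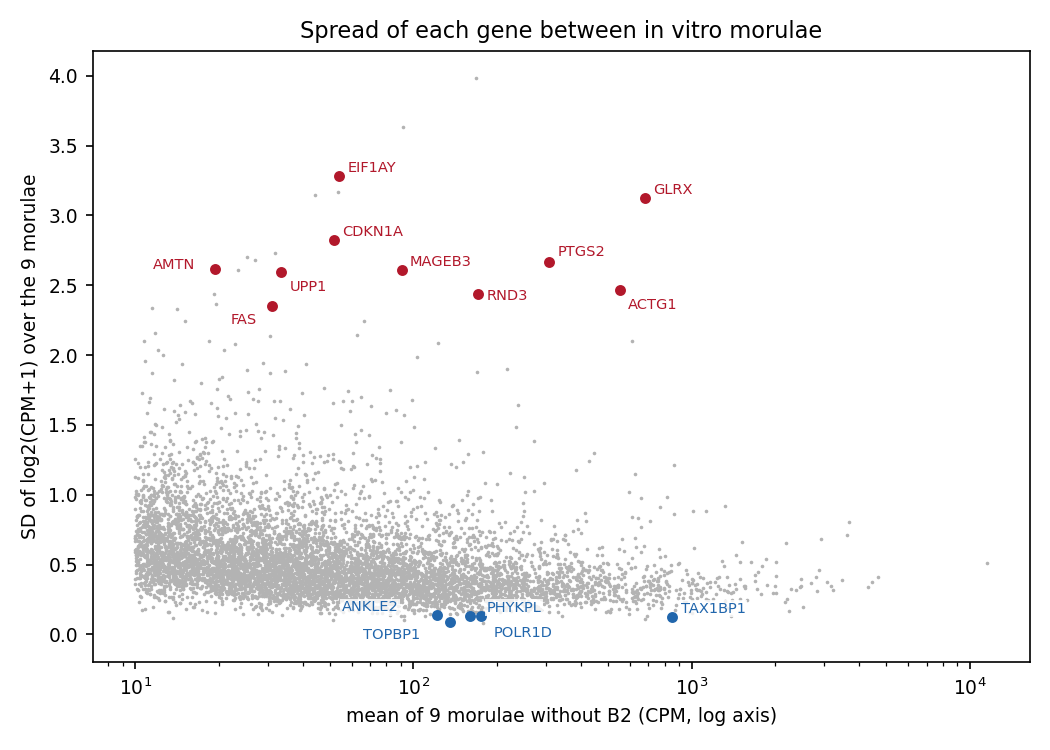
Spread of each gene between morulae: the x axis is the mean of the 9 morulae without B2 in CPM (log axis), the y axis the SD of log2(CPM + 1) over them, and each grey point 1 of 7172 genes. Red points are the 10 named genes with the largest SD and blue points the 5 genes above 100 CPM that were steadiest over all 10 morulae, which have SDs of 0.087 to 0.14 here, while most genes lie near 0.47.

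The genes that differed most between embryos were not of one kind. With B2, the 20 named genes with the largest SD were EIF1AY, CDKN1A, UPP1, GLRX, ID1, PTGS2, AMTN, MAGEB3, BTG2, TSC22D3, RND3, NOV, ACTG1, KRT8, RGN, FAS, GATM, IL6, CLU and PSAT1. Without B2, 13 of the 20 were shared, and ARHGAP36, SLC19A3, TNC, GCNT1, CITED2, MUC20 and MGP took the place of ID1, BTG2, NOV, RGN, GATM, CLU and PSAT1. These genes were chosen by their spread, so their values below are a description. Of the 100 genes with the largest SD, 62 were shared with and without B2. With B2, 42 of the 100 were highest in B2 and 40 lowest in G1. Without B2, 53 were lowest in G1 and 25 highest in E2.

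Single embryos set many of these spreads. CDKN1A (p21, an inhibitor of cyclin-dependent kinases) was at 224 CPM in A3, 195 CPM in B2 and 186 CPM in F1, and between 0 and 21.0 CPM in the other 7 embryos. UPP1 (uridine phosphorylase) was at 267 CPM in B2, 188 CPM in G2 and 90.9 CPM in E2, and between 0.192 and 9.83 CPM in the others. AMTN (amelotin, a secreted protein known from enamel) was at 102 CPM in A3, and at 0 to 23.1 CPM in the others. The 3 genes thus parted the embryos in 3 different ways. ARHGAP36 was at 130.0 CPM in F1, against 0 to 5.74 CPM in the others (median 0.435 CPM). TSC22D3 (a glucocorticoid-induced leucine zipper protein) was at 93.4 CPM in F1 and 49.6 CPM in B2, and at 0 to 2.09 CPM elsewhere. MGP (matrix Gla protein) was at 65.2 CPM in F1 and 25.3 CPM in G1, and at 0 to 15.4 CPM elsewhere. F1 therefore held the highest level of all 3. PPARG, a nuclear receptor of lipid metabolism, was at 0 CPM in D2, against 11.2 to 36.7 CPM (median 22.0 CPM) in the other 9.

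**Figure D2:**
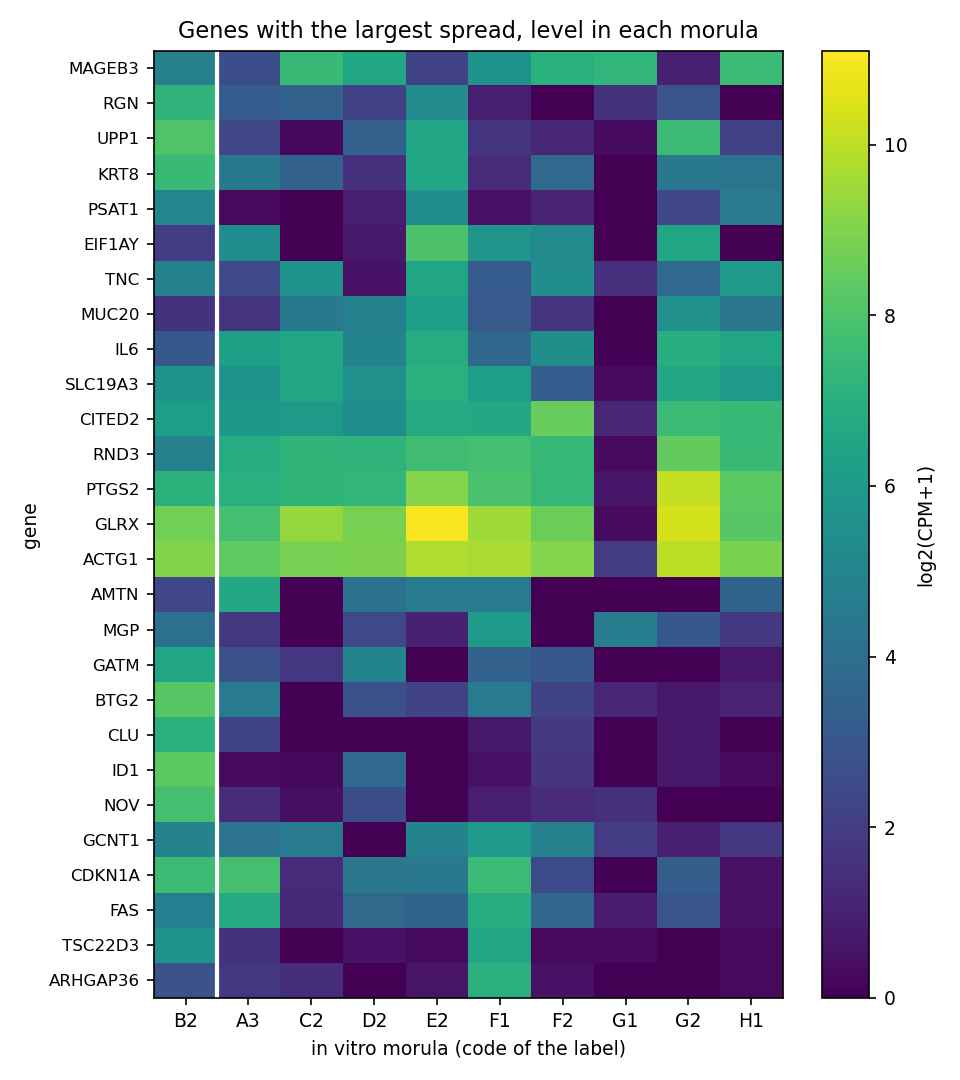
Level of the 27 most variable named genes (rows, the 20 largest SDs with and without B2 joined) in each morula (columns, B2 first, left of the white line). The colour is log2(CPM + 1), and the G1 column is dark for GLRX, PTGS2, ACTG1 and RND3, which are bright in the other 9 morulae.

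At the other end stood the steadiest genes. Among genes with a mean of at least 100 CPM the smallest SDs over the 10 embryos belonged to TOPBP1 (a scaffold of the DNA replication checkpoint; SD 0.11, 117 to 148 CPM), PHYKPL (SD 0.13, 132 to 177 CPM), POLR1D (a subunit shared by RNA polymerases I and III; SD 0.13, 153 to 204 CPM), ANKLE2 (SD 0.14, 97.7 to 135 CPM) and TAX1BP1 (an autophagy receptor; SD 0.14, 768 to 1010.0 CPM). CDH1 (E-cadherin, the adhesion molecule of compaction) had an SD of 0.23, at 209 to 362 CPM (median 306 CPM). B2 and G1, with 256 and 334 CPM, lay within this range.

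Y-linked genes parted the embryos most sharply. LOC100624149, which the annotation places on chromosome Y, had the largest SD of all genes (3.77). It was at 429 CPM in E2, 353 CPM in G2, 281 CPM in A3, 243 CPM in F1 and 188 CPM in F2. It was at 15.6 CPM in D2 and 14.9 CPM in B2, and at 0 CPM in C2, G1 and H1. EIF1AY, the Y-linked copy of a translation initiation factor, was at 258 CPM in E2, 91.6 CPM in G2, 55.1 CPM in F1, 41.4 CPM in A3 and 39.2 CPM in F2, and at no more than 2.87 CPM in the other 5. No embryo lay between 538 and 94.7 CPM in the summed level of Y-linked genes, which was 1189 CPM in E2, 1016 CPM in G2, 838 CPM in A3, 815 CPM in F1 and 538 CPM in F2. The sum was 94.7 CPM in D2, 73.6 CPM in B2, 34.3 CPM in C2, 27.1 CPM in H1 and 4.74 CPM in G1. Of the 10 Y-linked genes that reached 10 CPM, 9 were higher in each of the 5 embryos with the larger sums than in any other. In LOC110257929 the gap was narrow, with 4.26 CPM in E2 and 2.01 CPM in D2. CD99, which the annotation also places on Y, did not part the embryos in this way and ranged from 1.05 CPM in G1 to 24.2 CPM in F1.

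These levels went against the labelled sex in 6 of 10 embryos. By the methods of the study, morulae were sexed from expression of the Y-linked DDX3Y, EIF1AY and EIF2S3Y, with sperm still attached. The labels are thus not a sexing independent of Y-linked transcripts, and why they differ from the levels here was not tested. E2 and F2, labelled female, were among the 5 embryos high in Y-linked genes, and C2, D2, G1 and H1, labelled male, among the 5 that were low. X-linked genes ran the opposite way. Their median difference from each gene's mean, less the same for autosomal genes, was -0.52 in G2, -0.42 in A3, -0.41 in E2, -0.30 in F1 and -0.14 in F2 on the log2 scale. It was 0.50 in C2, 0.46 in G1, 0.41 in H1, 0.38 in D2 and 0.28 in B2. The labels are therefore used only as names here, and no comparison of the sexes was made.

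X-linked genes were also more spread than the average gene. Their median SD was 0.72 over the 266 measured, against 0.51 over all genes, and 54 of the 266 had an SD above 1, against 8.66% of all genes. MAGEB3, a MAGE family gene on X, was at 189 CPM in H1, 179.7 CPM in C2, 157 CPM in G1, 134 CPM in F2 and 97.0 CPM in D2. It was at 50 CPM in F1, 27.1 CPM in B2, 5.43 CPM in A3, 3.50 CPM in E2 and 0.948 CPM in G2. Of its 5 highest embryos, 4 were thus low in Y-linked genes, F2 being the exception. LOC100521702, the X-linked gene with the largest SD without B2 (2.73), was at 92.4 CPM in G1 and 72.2 CPM in D2, and at 0 CPM in A3 and E2.

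**Figure D3:**
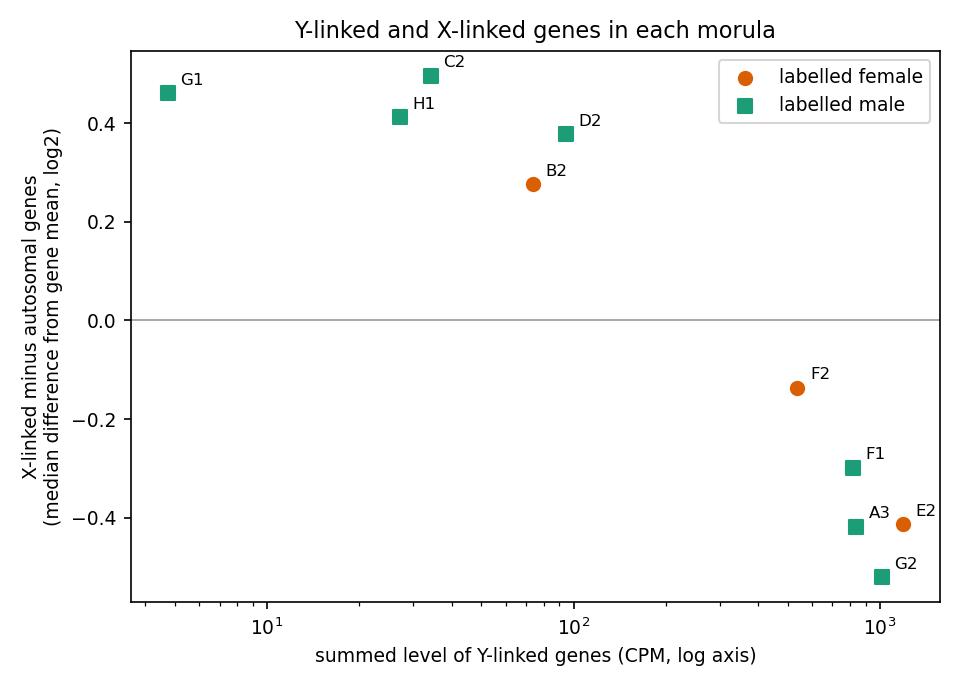
Summed level of Y-linked genes (x axis, CPM, log axis) and level of X-linked relative to autosomal genes (y axis, median difference from the gene mean, log2) in each of 10 morulae, marked by labelled sex. On the right 5 morulae lie at 538 CPM or more with X-linked values below 0, and 5 lie at 94.7 CPM or less with values above 0, and both sets hold labels of both sexes.

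One autosome stood apart in a single embryo. The genes of chromosome 17 were lower in A3: their median difference from each gene's median, less the autosomal median of the embryo, was -0.61 on the log2 scale over 221 genes, which is 0.656 of the level otherwise seen. In the other 9 embryos the value for chromosome 17 was between -0.03 and 0.07. The remaining 179 values of an autosome in an embryo lay between -0.16 and 0.16. In A3, 87.8% of the genes of chromosome 17 were below 0, against 36.7 to 52.0% in the other embryos, and the quartiles were -0.93 and -0.25.

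The lower level ran along the whole chromosome, with medians of -0.76, -0.46 and -0.59 in 3 consecutive stretches of 73, 74 and 74 genes. A3 was the lowest of the 10 embryos in 86 of the 221 genes, 38.9% of them, against 7.41% of all genes. CPNE1 (a calcium-dependent membrane-binding protein) was at 3.34 CPM in A3, against 32.8 to 146 CPM (median 104 CPM) in the others. RBBP9 was at 2.93 CPM in A3, against 15.9 to 55.1 CPM (median 25.7 CPM). ZFP42 (REX1, a pluripotency marker) was at 59.6 CPM in A3, against 128 to 398 CPM (median 267 CPM). The pattern was looked for after the first genes low in A3 had been seen, and its origin was not tested.

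**Figure D4:**
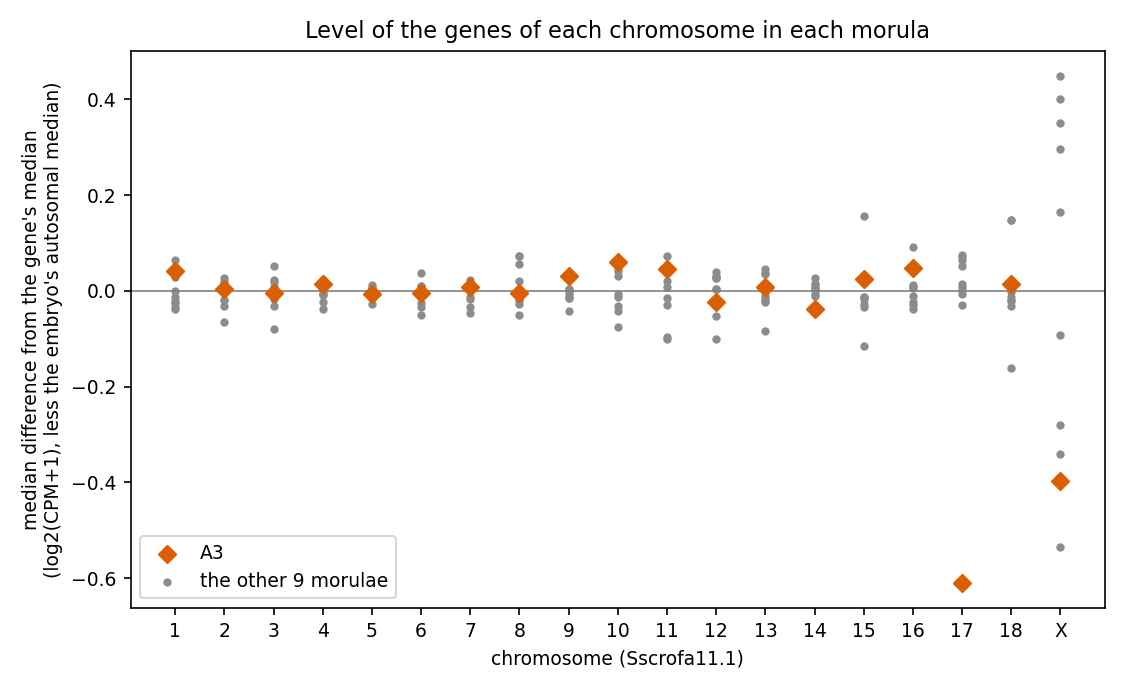
Median level of the genes of each chromosome (x axis) in each morula, as the log2 difference from each gene's median over the 10 morulae less the autosomal median of the morula (y axis). Orange diamonds are A3, grey points the other 9. Chromosome 17 in A3 lies at -0.61, all other autosomal points within 0.16 of 0, and chromosome X parts the morulae.

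B2 held oocyte transcripts that were low in the other embryos. Of 33 oocyte genes matched, 32 had a read and 16 reached 10 CPM, and of these 16, 10 were highest in B2, against 18.7% of all genes. Over the 32 with a read it was 23. One of the 16, PADI6, reached 10 CPM only through B2. The median difference of the 16 genes from their means was 2.97 in B2, against -0.97 to 0.54 in the other embryos (log2), and 2.95 in B2 over the 15 without PADI6. Their median SD was 1.30 with B2 and 0.70 without it. B2 is known from earlier results to keep maternal transcripts, so these values describe it and do not test it.

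The oocyte genes high in B2 covered several roles. BTG4, which brings the deadenylase to maternal mRNA, was at 608 CPM in B2, against 9.39 to 67.1 CPM (median 40.8 CPM) in the others. WEE2, an oocyte kinase that holds meiosis, was at 427 CPM, against 7.60 to 35.2 CPM (median 18.2 CPM). KPNA7, an oocyte importin, was at 235 CPM, against 4.47 to 21.8 CPM (median 8.24 CPM). None of the 3 ranges reached the level of B2. The same held for H1FOO (the oocyte linker histone, 269 CPM in B2 against 6.93 to 27.8 CPM), BMP15 and GDF9 (oocyte growth factors, 268 CPM against 7.51 to 61.7 CPM and 80.4 CPM against 10.1 to 27.4 CPM), MOS (139 CPM against 2.01 to 24.7 CPM), ZP4 (zona pellucida, 243 CPM against 6.03 to 77.1 CPM) and DNMT1 (maintenance DNA methylation, 1752 CPM against 85.6 to 370.5 CPM). Not every gene of the list followed. DPPA3 was lowest in B2 (994 CPM, against 1594 to 3679 CPM), as was KIT (12.5 CPM, against 17.3 to 73.4 CPM), and ZP2, DAZL and CNOT6L had their highest level elsewhere. Among the other 9 embryos D2 was lowest in BTG4, WEE2, KPNA7, H1FOO, GDF9, MOS and ZP4.

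B2 differed in many other genes. It was the highest embryo by at least 2 on the log2 scale in 82 genes and the lowest by that margin in 10, against at most 1 and 7 genes in any embryo other than B2 and G1. The mean of 10 CPM that a gene had to reach includes B2, so that genes nearly absent elsewhere entered through B2 alone. With the mean taken over the other 9 embryos, 38 genes were highest in B2 by that margin and 10 lowest. The 82 held ID1 and ID3, inhibitors of DNA-binding transcription factors: ID1 was at 311 CPM in B2, against 0 to 12.7 CPM (median 0.214 CPM), and ID3 at 531 CPM, against 3.76 to 48.6 CPM (median 7.82 CPM). ISG15, an interferon-induced ubiquitin-like protein, was at 106 CPM in B2 and at no more than 1.12 CPM elsewhere. MMP19, a metalloproteinase, was at 109 CPM in B2 and at no more than 1.58 CPM elsewhere. NOV, CLU and RGS2 showed the same picture, at 228, 137 and 266 CPM in B2 and no more than 5.36, 3.76 and 6.41 CPM in any other embryo. In the other direction, NUCB2 was at 90.3 CPM in B2, against 633 to 1411 CPM (median 999 CPM), SULT1E1 (estrogen sulfotransferase) at 308 CPM, against 1080.2 to 2789 CPM (median 2241 CPM), and SPIC (an ETS factor) at 17 CPM, against 101 to 464 CPM (median 199 CPM).

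Genes that stood far apart in G1 were mostly low there. It was the lowest embryo by at least 2 on the log2 scale in 56 genes and the highest by that margin in 3, and it was the lowest of the 10 in 1172 genes, 16.1% of those measured. It was the highest in 1009 genes (13.9%), so that without the margin both directions were frequent, and B2 was the lowest in more genes than G1. GLRX (glutaredoxin) was at 0.263 CPM in G1, which is 1 read, against 228 to 2056 CPM (median 454 CPM) in the others. PTGS2 (cyclooxygenase 2, prostaglandin synthesis) was at 0.526 CPM, against 132 to 1073 CPM (median 169.6 CPM). ACTG1 (gamma actin) was at 2.90 CPM, against 326 to 1017 CPM (median 505 CPM). G1 lay far outside the range of the other 9 in each of the 3. RND3 (a regulator of the actin cytoskeleton) was at 0.263 CPM, against 28.2 to 344 CPM, CITED2 (a transcription cofactor) at 1.32 CPM, against 41.1 to 362 CPM, and IL6 (a cytokine) at 0 CPM, against 7.31 to 122 CPM. ACTB, beta actin, whose sequence is close to that of ACTG1, was also lowest in G1, at 91.9 CPM, against 314 to 1629 CPM. G1 was singled out after its values had been seen.

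By gene list, G1 was low in several groups. Trophectoderm genes had a median difference of -1.49 in G1, against -0.28 to 0.54 in the other embryos, and 6 of 12 were lowest in G1. NRF2 and glutathione genes, which protect from oxidation, were at -1.30, against -0.11 to 0.77, with 13 of 22 lowest in G1. Glycolysis and pyruvate genes were at -0.95, against -0.24 to 0.25, with 10 of 18 lowest. Each of these counts was above the 16.1% of all genes lowest in G1. Genes of the actin, myosin and tubulin list were at -0.79 (9 of 16 lowest) and those of adhesion, polarity and junctions at -0.71 (13 of 28 lowest), among them CLDN4 (a tight junction protein; 2.90 CPM in G1, against 43.1 to 171 CPM) and MSN (moesin; 0.263 CPM, against 7.27 to 108 CPM). Of the 12 trophectoderm genes, however, 3 were above their mean in G1. TEAD4 was highest in G1 (48.2 CPM, against 18.8 to 46.4 CPM). ATP1B3 was at 1132 CPM (against 517 to 1531 CPM) and TFAP2C at 1366 CPM (against 554 to 2090 CPM). CDH1, TUBB (977 CPM in G1, against 625 to 1126 CPM) and TKT (376 CPM, against 278 to 375 CPM) of the other lists above were not low in G1 either. Genes of the embryonic genome activation list went the other way, with a median difference of 0.95 in G1, 0.63 in B2 and -0.35 to 0.15 in the other 8. Of the 13 genes, 6 were highest in G1 and 6 in B2, against 13.9% and 18.7% of all genes. MYC, one of the 6 highest in B2 (65.5 CPM), reached 10 CPM only through B2, and the medians include it. ARGFX was at 1391 CPM in G1, against 287 to 906 CPM, and DUXA at 104 CPM, against 9.76 to 74.4 CPM, both homeobox genes of the first embryonic transcription. SYCP1 (synaptonemal complex) and STK31 (a germ cell kinase) were also highest in G1, at 70.0 CPM against 0.316 to 9.39 CPM, and at 149 CPM against 3.25 to 42.3 CPM. The depth of G1 (3189159 reads) lay within the range of the other embryos, and its number of genes with a read (14488) was the lowest of the 10, close to that of E2 (14496).

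p53 target genes were high in 3 embryos. Over the 16 measured, the median difference from the gene means was 1.29 in A3, 1.13 in B2 and 0.99 in F1, against -1.42 to 0.19 in the other 7, and the 0.19 of E2 turned to -0.12 under the plain library total. The median SD of the list was 1.38, and 1.06 without B2, against 0.51 and 0.47 over all genes. A3 and F1 shared genes that B2 did not. MDM2, the ubiquitin ligase that p53 induces against itself, was at 279 CPM in A3 and 238 CPM in F1, and at 55.8 to 131 CPM in the other 8, B2 being at 57.9 CPM. ZMAT3 was at 230.3 CPM in A3 and 198 CPM in F1, and at 9.96 to 42.8 CPM in the others. FAS, a death receptor, was at 119 CPM in F1 and 114 CPM in A3, and at 0.427 to 26.4 CPM in the others. These 3 targets separated A3 and F1 from all other embryos.

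Other genes of the p53 list were highest in B2, of which BTG2 and GADD45B reached a mean of 10 CPM only through B2. Over the 14 genes without them the median difference was 1.02 in B2, 1.29 in A3 and 0.99 in F1. BTG2, an antiproliferative factor, was at 299 CPM in B2, against 0 to 23.3 CPM, and GADD45A and GADD45B (growth arrest) at 88.2 CPM, against 0 to 39.7 CPM, and at 167 CPM, against 1.28 to 9.74 CPM. CCNG1 (cyclin G1) was at 1245 CPM in A3, 1159 CPM in E2 and 1007 CPM in F1, and at 223 to 647 CPM elsewhere, with G1 lowest. TIGAR, the steadiest of the list, was at 95.7 to 166 CPM in all 10.

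ATF4 target and amino acid supply genes were high in E2 and B2. The median difference over 15 genes was 1.66 in E2 and 1.5 in B2, against -1.03 to 0.23 in the other 8, and under the plain library total 1.38 in E2 and 1.56 in B2, so that their order depended on the scaling. PSAT1 and NUPR1 reached 10 CPM only through B2, and over the 13 genes without them the values were 1.43 in E2 and 0.80 in B2. ASNS (asparagine synthetase) was at 199.5 CPM in E2, 105 CPM in B2 and 74.7 CPM in H1, and at 9.74 to 31.1 CPM in the others. CHAC1 (glutathione degradation) was at 68.3 CPM in E2, 32.9 CPM in B2 and 29.3 CPM in H1, and at 0.192 to 5.26 CPM in the others. PSAT1 (serine synthesis) was at 43.1 CPM in E2, 33.4 CPM in B2 and 22.2 CPM in H1, and at 0 to 4.11 CPM in the others. The same 3 embryos thus led in each of these genes. DDIT3 (CHOP) was at 192 CPM in B2 and 84.4 CPM in E2, and at 15.7 to 43.8 CPM elsewhere, whereas SHMT2 of the same list ranged from 5.98 to 17.7 CPM with H1 lowest.

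Under the deposited scaling, E2 was highest in most genes of the cytosolic ribosome and of oxidative phosphorylation. Of 81 cytosolic ribosomal protein genes, 72 were highest in E2 and 64 lowest in B2, against 22.5% and 20.4% of all genes. Their median difference was 0.78 in E2, -0.56 in B2 and -0.22 to 0.18 in the other 8. Nuclear genes of oxidative phosphorylation gave 0.86 in E2, -0.67 in B2 and -0.25 to 0.27 in the others, with 54 of 64 highest in E2 and 43 lowest in B2. Under the plain library total the 2 values of E2 were 0.45 and 0.54, and those of B2 -0.50 and -0.61, so their sign did not depend on the scaling. Ribosomal protein genes took 10.7% of the reads in E2, 5.71% in B2 and 7.14 to 9.57% in the other embryos. RPS9 was the steadiest of them (SD 0.15), at 469.6 to 658 CPM. Mitochondrial ribosomal protein genes went the same way under the deposited scaling, at 0.62 in E2, -0.33 in B2 and -0.22 to 0.21 in the other 8. Of 74 such genes, 48 were highest in E2 and 29 lowest in B2. Initiation factors and aminoacyl tRNA synthetases did not follow. Translation initiation factors had a median difference of 0.08 in E2, with 12 of 48 highest and 12 lowest in E2, and 0.20 in G1, and aminoacyl tRNA synthetases one of 0.24 in E2 and 0.30 in G2, with 7 of 26 highest in each. No gene of the mitochondrial genome was analysed.

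**Figure D5:**
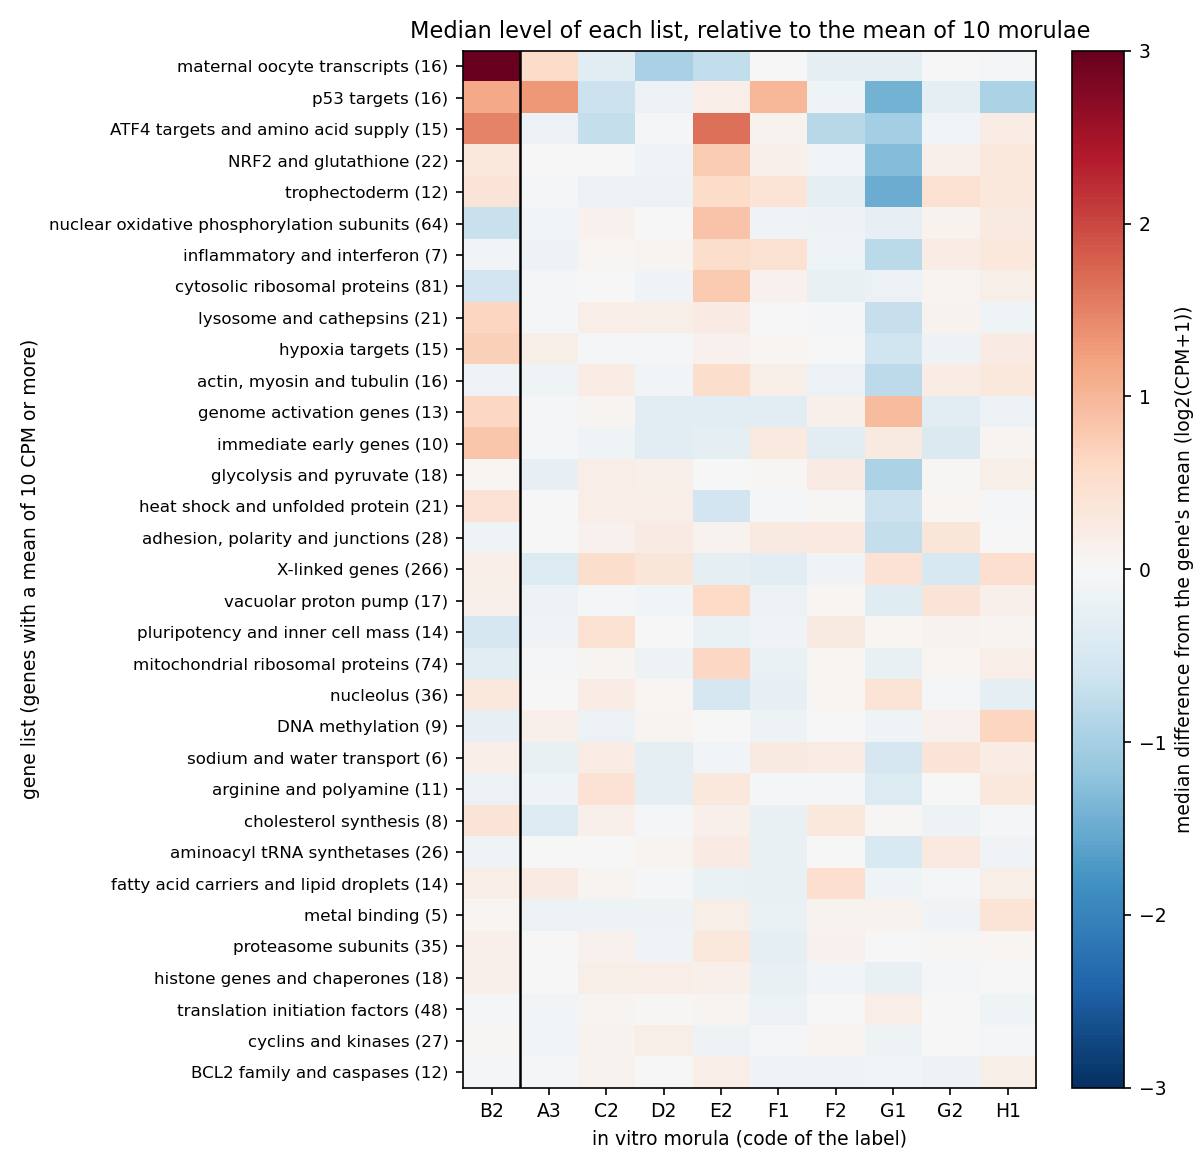
Median difference of each gene list from the gene means (colour, log2(CPM + 1)) in each morula (columns, B2 first). The number of genes is in brackets. B2 reaches 2.97 for maternal oocyte transcripts, E2 is high in ribosomal proteins and oxidative phosphorylation, E2 and B2 in ATF4 targets (in an order that turns with the scaling), A3, B2 and F1 lead in p53 targets, and G1 is low in trophectoderm, NRF2, glycolysis, actin and adhesion lists.

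Among markers that reached 10 CPM, those of pluripotency differed about as much as the average gene, and those of trophectoderm more. Pluripotency genes had a median SD of 0.52 over 14 genes, close to that of all genes. POU5F1 (OCT4) was at 33.4 to 70.3 CPM (median 50.3 CPM) with B2 lowest, and SALL4 at 344 CPM in B2, against 418 to 976 CPM. SOX2 was at 1 CPM in E2 and 2.87 CPM in B2, against 7.05 to 25.7 CPM, and NANOG at 1.58 CPM in G2, against 4.01 to 23.7 CPM. E2 and B2 were therefore low in SOX2 but not both low in NANOG, which was at 17.2 CPM in B2. DPPA5 was at 243 CPM in B2, against 10.0 to 45.6 CPM. Trophectoderm genes had a median SD of 0.90 over 12 genes. It was 0.64 without G1 and 0.59 without B2 and G1, against 0.49 and 0.43 over all genes, so that G1 set much of it. Of 25 trophectoderm genes listed, these 12 reached 10 CPM, while CDX2, GATA2, GATA3, TFAP2A, ELF5, EOMES and HAND1 did not. KRT8 and KRT18, the paired keratins of simple epithelia, were at 176 and 130.2 CPM in B2 and 99.4 and 83.9 CPM in E2, and at no more than 21.5 and 34.5 CPM elsewhere. G1 was lowest in both, at 0 and 5.53 CPM. PDPN (podoplanin) was at 112 CPM in B2 and 85.1 CPM in E2, and at 0.871 to 27.2 CPM elsewhere, while OVOL1, an epithelial transcription factor, ranged only from 20 to 41 CPM.

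Genes that varied together were sought over all pairs. With 10 embryos there were 26437356 pairs of genes, and the Spearman rho of a pair on log2(CPM + 1) was tested against all orders of the ranks. No pair (0%) passed at an adjusted p under 0.05 by this exact permutation test with Benjamini-Hochberg adjustment over all pairs, the smallest adjusted p being 0.180. Without B2, 0 of 25715206 pairs (0%) passed, with a smallest adjusted p of 0.337. The smallest p that this exact permutation test can give is 5.51e-07 with 10 embryos and 5.51e-06 with 9. A single pair alone therefore could not pass the adjustment over so many pairs, whatever its rho. The raw exact p was under 0.05 in 8.06% of the pairs, and in 6.37% without B2. A rho of at least 0.8 was found in 0.900% of the pairs and one of at most -0.8 in 0.725%, and without B2 in 1.26% and 1.07%. Single pairs thus could not be told from the many pairs tried, and the groups below are described against these shares, with no test. With depth, 0 genes passed the same exact permutation test after adjustment over genes (470 genes at a raw p under 0.05), and with the number of genes with a read also 0 (530 genes).

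Of 32 gene pairs with a known shared pathway, complex or lineage, 22 had both genes at 10 CPM or more. As no pair of genes passed, none of these could, and they are described without a test. The rho was above 0 in 17 pairs and had a median of 0.52, and without B2 in 18 with a median of 0.44. TPM1 and TPM4 (tropomyosins) had a rho of 0.83 with 10 embryos and 0.83 without B2 (Pearson r 0.89 in both cases). CDKN1A and MDM2, both p53 targets, had a rho of 0.60 with B2 and 0.92 without it, B2 being high in CDKN1A only, and 0.21 without the 2 embryos farthest from the median of CDKN1A, A3 and G1. KRT8 and KRT18 had a rho of 0.79, and 0.72 without B2. BTG4 and WEE2 had a Pearson r of 0.90 that rested on B2: their rho was 0.39, 0.17 without B2 and -0.19 without B2 and D2. HSPA8 and its cochaperone DNAJB1 ran against each other, with a rho of -0.82, and -0.75 without B2. GCLC and GCLM, the subunits of one enzyme of glutathione synthesis, had a rho of -0.20, and -0.65 without B2.

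Within several gene lists, pairs with a rho of at least 0.8 were more frequent than the 1.26% of all pairs without B2. They made up 73.3% of the pairs of Y-linked genes, 24.2% of those of p53 targets (22 of 91), 21.9% of those of cytosolic ribosomal proteins (709 of 3240) and 13.5% of those of oxidative phosphorylation. The plain library total gave 18.7% for p53 targets, 16.9% for ribosomal proteins and 9.08% for oxidative phosphorylation. Maternal oocyte transcripts had 5.00% with B2, against 0.900% of all pairs, and 1.90% (2 of 105) without it. Cyclins and kinases (1.14%) and genes of fatty acid carriers and lipid droplets (0 of 91) were near or under the share of all pairs. The members of a list share embryos, depth and scaling, so these shares are descriptions.

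The closest companions of the most variable genes named similar sets of embryos. Over the 9 embryos without B2, RND3 had the same order as REEP5 (rho of 1), and PTGS2 nearly that of SMPD3 (rho 0.98), a sphingomyelinase. All 4 genes were lowest in G1 and highest in G2. EIF1AY was closest to the Y-linked LOC100624149 and LOC110257894 (rho 0.98 each), and MAGEB3 to 3 other X-linked genes, TAF9B, FANCB (rho 0.95 each) and CUL4B (0.93). UPP1 was close to DPPA5 (rho 0.95), and this pair kept a rho of 0.96 with B2, whereas UPP1 and TBC1D23 had a rho of 0.97 without B2 and 0.43 with it.

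Grouping the 300 most variable genes by rho gave 12 modules of at least 8 genes without B2, which held 177 of them. Genes were grouped by their order over these same embryos, so a shared highest or lowest embryo follows from the grouping. The counts below only describe which embryo set a module. The largest had 38 genes, with TSPAN1, TRUB1, HEBP1, PFN1 (profilin, an actin-binding protein) and PDLIM1 at its core, 34 of them lowest in G1 and 28 highest in E2. PFN1 was at 35.5 CPM in G1, against 153 to 721 CPM in the others, with E2 highest. The second had 32 genes, 9 of them Y-linked, around ABCA1 (cholesterol export), PHLDA3 (a p53 target), AIF1, PSRC1 and SLC40A1 (iron export). It thus joined Y-linked and p53 target genes, which A3 and F1 shared: PHLDA3 was at 65.6 CPM in A3 and 55.3 CPM in F1, and AIF1 at 40.1 CPM in F1 and 32.6 CPM in A3 and at no more than 10.1 CPM elsewhere. The third, of 14 genes around MFSD2A, RAB3IL1, STK31, PHYHIPL and PRELID2, was highest in G1 in 12 of them. With B2 there were 11 modules, and B2 set the largest: of 43 genes around RRM2B (a p53-induced ribonucleotide reductase subunit) and SPRED2, 41 were highest in B2. A further module of 18 genes, with WEE2, NLRP11 and ANXA1, was highest in B2 in all 18. With B2 kept, genes that reached 10 CPM only through B2 could enter. Over all genes and 10 embryos, 18.7% were highest in B2, 22.5% highest in E2, 13.9% highest in G1 and 16.1% lowest in G1.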

How the data were processed

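Single morulae were sequenced by Smart-seq2 with 18 PCR cycles. Per the labels and the methods of the study, the authors trimmed reads with Trim Galore, aligned them with HISAT2 to Sus scrofa 11.1 and scaled them with edgeR. Versions, counting tool and annotation are not given in the sources used here. The deposited values are a signal in CPM of the scaled library size, without length correction. Whole reads were recovered from them (100% of values within 0.1 reads), giving the depths. Columns with the authors' fold changes and p-values were not used. All 30321 gene IDs matched the RefSeq table of Sscrofa11.1. No sequence table was used. Reads carry no strand, so overlapping and antisense genes cannot be told apart.

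Genes with a mean of at least 10 CPM were analysed on log2(CPM + 1), by SD and by Spearman rho with exact permutation p-values (python 3.11.15, numpy 2.4.6, scipy 1.17.1, pandas 2.3.3). With no groups compared, no count test was run. Scripts were tested on simulated data. Named were the 15 most abundant genes, the 20 with a symbol and the largest SD with and without B2, the 5 steadiest above 100 CPM, 3 partners for each of 10 variable genes, cores of modules, the extremes of each list, up to 3 genes per embryo, fixed pairs and Y-linked genes. Other genes named were chosen after their values were seen. Members and lists were chosen with earlier results of these data known. Embryos are separate samples, but nothing ties them to mothers or experiments.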

Additional observations from a re-analysis of the deposited data

Results flagged for a closer look

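A value was singled out where the gap between the highest or lowest embryo and the next took up more of the whole range than Dixon's 95% critical value for 10 samples. Chance alone does so in about 1 in 20 sets. Of 8 library measures 2 were singled out, of the 15 abundant transcripts 5 (in CPM), and of 37 gene lists 8 (on the log2 scale). The 2 measures were the same count of genes with a read, before and after thinning. The lists include maternal oocyte transcripts in B2, which were known beforehand. Over the 7272 genes, on the log2 scale, it was 724 (9.96%), with B2 far above in 151 and far below in 160, G1 in 51 and 120, and E2 in 70 and 51. A gap above the other embryos takes up more of the range in CPM than on the log2 scale. The 5 of 15 abundant transcripts therefore cannot be set beside this share.

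The number of genes with a read was far higher in B2 (17873, others 14488 to 15994), also after thinning (17516, others 13965 to 15636). On the CPM scale, E2 was far above the others in HSPA8 (7731 CPM, others up to 5188 CPM), EEF1A1 (6767 CPM, others up to 4843 CPM), FTH1 (8791 CPM, others up to 4825 CPM), ATP5A1 (4437 CPM, others up to 3203 CPM) and RPLP0 (5528 CPM, others up to 3723 CPM). None of these 5 stood apart by the same measure under the plain library total, where E2 was at 7192 CPM in HSPA8 (others up to 6621 CPM), 6295 CPM in EEF1A1 (up to 6151 CPM), 8177 CPM in FTH1 (up to 5741 CPM), 4127 CPM in ATP5A1 (up to 3811 CPM) and 5142 CPM in RPLP0 (up to 4751 CPM). Maternal oocyte transcripts were far above in B2, with a median difference of 2.97 (others up to 0.54). G1 was far below in trophectoderm genes (-1.49), NRF2 and glutathione genes (-1.30), glycolysis and pyruvate genes (-0.95), inflammatory and interferon genes (-0.82), the actin, myosin and tubulin list (-0.79) and adhesion, polarity and junctions (-0.71). DNA methylation genes were far above in H1 (0.65, others -0.25 to 0.15). Under the plain library total neither the DNA methylation genes in H1 (0.54, others up to 0.24) nor adhesion, polarity and junctions in G1 (-0.68, others from -0.21) stood apart any longer, while the other 6 lists did.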

How the results depend on the processing

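No gene pair was called under any alternative (0 in each case by the exact permutation test, while 8.06% of pairs had a raw p under 0.05 with 10 embryos). The share of pairs with a rho of at least 0.8 was 0.900% with 10 embryos, 1.17 to 1.52% when 1 embryo was left out, 1.66% without both B2 and G1 and 1.49% with a minimum of 50 CPM. Starting without B2 it was 1.26%, 1.48 to 1.85% with 1 further embryo left out and 1.95% with the minimum of 50 CPM. For a rho of at most -0.8 the shares were 0.725%, 1.02 to 1.29% with 1 embryo left out and 1.42% without both B2 and G1, and without B2 1.07%, and 1.34 to 1.62%. Fewer embryos allow fewer orders of ranks, so high values of rho come more easily.

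The share of genes with an SD above 1 was 8.66% with 10 embryos, 6.19 to 9.70% with 1 embryo left out, 4.10% without both B2 and G1, 2.37% with a pseudocount of 10 CPM, and 15.2%, 4.06% and 2.86% with minimums of 1, 50 and 100 CPM. Without B2 it was 6.19%, 4.10 to 7.08% with 1 further embryo left out (lowest without G1), 1.38% with that pseudocount, and 11.6%, 3.19% and 2.16% with those minimums. Of the 20 most variable genes, 13 to 19 were shared when 1 embryo was left out (fewest without B2), 7 without both B2 and G1, 12 with a pseudocount of 10 CPM, 8 and 4 with minimums of 50 and 100 CPM, 7 by median absolute deviation and 5 by coefficient of variation. Without B2 these counts were 11 to 20 (fewest without G1), 11 with the pseudocount, 10 and 5 with the minimums, 8 and 9. Leaving out both B2 and G1 was chosen after seeing the data, as were the filter on the mean of the other 9 embryos, the plain library total for values that stood apart, the values without X and Y genes and those for chromosome 17 in A3, which ranged from -0.68 to -0.46.

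Of the fixed pairs, 3 changed sign: BTG4 and WEE2 (-0.19) and LDHA and PGK1 (-0.12) without the 2 embryos farthest from the median of the first gene, and POU5F1 and NANOG (0.033) without B2. No paired analysis was possible because a single group was examined. Depth limits genes near 10 CPM, and a single library per embryo leaves no technical error.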
